A study of Homo sapiens with 5 samples.

Results

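The 36 genes described here encode methyltransferases, enzymes that move a methyl group from S-adenosylmethionine to DNA, RNA, lysine residues of proteins (mostly histones) or arginine residues of proteins. They were chosen by name for what they do, with earlier results of these data known, and are 36 of the 26364 genes listed in each file. The classes hold 3 DNA, 21 lysine, 7 arginine and 5 RNA methyltransferases. The lysine class is that of the SET-domain and SMYD families and of DOT1L, and it includes SETD3, whose known substrate is a histidine of actin. Their mRNA was measured in 5 libraries from tumours of HT-29, a long-established line of human colon cancer cells. They grew under the skin of female NOD SCID mice, which lack T and B cells, were 5 weeks old when obtained, and ate 1 of 4 foods. The series' design text gives the time as 2 weeks of rearing in one place and as an experiment of 3 weeks in another. There was 1 library from normal food, 2 from food lacking methionine (the methionine-free pair, replicates 1 and 2), 1 from food lacking tryptophan and niacin, and 1 from food lacking all of these, called the combined omission. No sample of the cell line grown outside the mouse is among these libraries, and each lone library stands for 1 diet.

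Cells make S-adenosylmethionine from methionine, and after the methyl group is given up, S-adenosylhomocysteine remains, which inhibits many methyltransferases until it is cleared. Methyl marks on DNA and on histone lysines take part in switching genes on or off, arginine methylation acts on histones, splicing factors and ribosomal proteins, and methylated bases in RNA affect its stability and translation. The series' design text ties tryptophan and niacin to this cycle because nicotinamide is methylated at the expense of S-adenosylmethionine. mRNA levels, as measured here, say how much transcript of an enzyme was present, not how active the enzyme was.

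The stretch around the transcription start is shown for 4 members: DNMT1 and EZH2, which hold letters of the cell cycle factor E2F, EHMT1, which holds the letters of NRF1 most often among the members, and PRMT3, the member of smallest unadjusted p in 2 of the comparisons below. Promoter sequences came from RefSeq on build GRCh38.p14 (250 bases before to 50 after the start), a build other than the hg19 of the files, and 32 of the 36 members had one. The stretches lie at chr19:10194904-10195203 (minus strand) for DNMT1, chr7:148884242-148884541 (minus strand) for EZH2, chr9:137618755-137619054 (plus strand) for EHMT1 and chr11:20387466-20387765 (plus strand) for PRMT3. They run 5′ to 3′ along the gene, with matches to the E2F and NRF1 letters in capitals.
DNMT1: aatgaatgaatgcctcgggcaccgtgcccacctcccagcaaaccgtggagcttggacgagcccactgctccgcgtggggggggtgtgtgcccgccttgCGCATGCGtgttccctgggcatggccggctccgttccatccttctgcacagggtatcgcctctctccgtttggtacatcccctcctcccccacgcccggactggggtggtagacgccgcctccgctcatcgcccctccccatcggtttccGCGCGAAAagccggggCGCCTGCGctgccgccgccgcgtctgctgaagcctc
EZH2: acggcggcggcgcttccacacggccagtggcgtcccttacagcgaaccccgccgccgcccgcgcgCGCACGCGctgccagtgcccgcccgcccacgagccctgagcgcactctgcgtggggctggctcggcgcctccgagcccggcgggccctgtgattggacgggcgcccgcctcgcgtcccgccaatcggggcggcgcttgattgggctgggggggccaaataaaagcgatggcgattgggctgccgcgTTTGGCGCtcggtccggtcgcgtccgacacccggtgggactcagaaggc
EHMT1: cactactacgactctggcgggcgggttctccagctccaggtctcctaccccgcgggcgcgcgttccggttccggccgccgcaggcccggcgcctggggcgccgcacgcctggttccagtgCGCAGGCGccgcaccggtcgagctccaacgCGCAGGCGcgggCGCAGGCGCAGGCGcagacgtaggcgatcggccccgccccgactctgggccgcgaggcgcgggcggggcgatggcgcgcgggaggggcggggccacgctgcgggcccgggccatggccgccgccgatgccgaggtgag
PRMT3: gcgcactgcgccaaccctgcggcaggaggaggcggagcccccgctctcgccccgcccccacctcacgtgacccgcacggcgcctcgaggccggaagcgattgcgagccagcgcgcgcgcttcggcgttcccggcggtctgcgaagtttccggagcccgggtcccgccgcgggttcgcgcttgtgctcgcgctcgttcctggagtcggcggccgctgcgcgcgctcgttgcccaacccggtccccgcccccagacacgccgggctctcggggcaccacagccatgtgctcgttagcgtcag
The E2F letters searched were TTTCCCGC, TTTGGCGC, TTTCGCGC and TTTGCCGC on both strands. They occurred in DNMT1, EZH1 and EZH2, 3 of 32 members or 9.38%, against 3.31% of all 35116 promoters and 5.68% of 7708 promoters of expressed genes. Expressed genes here are those that reached 16.3 CPM in at least 1 library, each counted once. The 32 members include DNMT3B and SMYD3, which did not reach it. The NRF1 letters, CGCNTGCG on both strands, where N is any base, occurred in 11 of 32 members (ASH1L, DNMT1, EHMT1, EHMT2, EZH1, EZH2, METTL3, PRMT2, SETDB1, SMYD3 and SUV39H2), or 34.4%, against 10.0% of all and 20.5% of expressed genes. In EHMT1 they occurred 4 times, with 2 of the matches overlapping. Searched on both strands as well, CCAAT was in 12 members (37.5%, against 37.0% of expressed genes). TATAAA was in 1, METTL3, on the strand opposite to the gene (3.12%, against 5.02%). The median number of CG pairs was 29.5 in the members, 27 in expressed genes and 14 in all promoters. A match is a description of the letters in this window, and PRMT3 had none of the 4 motifs.

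The libraries were shallow. Totals ran from 433930 counts (combined omission) to 1088084 (normal food), so that 1 count was worth 0.919 to 2.30 CPM (the count scaled by the library total), and 3 counts, the floor used here, 2.76 to 6.91 CPM. The median member had 24.5 counts in the combined omission and 59.8 on normal food. Methionine-free replicate 2 stood apart: its difference from replicate 1 on a log2 CPM scale had a Spearman rho of −0.46 with transcript length over 9583 genes, a description in which all genes share the same pair of libraries. All 10 colon epithelium markers were present in every library, summing to 12735 to 14347 CPM. The largest part was KRT8, at 6532 to 7867 CPM. In their lowest libraries CDX1 and CDX2 had 2 counts each, under the floor, and CEACAM5 had 4. Of the markers of other cells, 4 of 6 for fibroblasts, 3 of 4 for endothelium and 2 of 4 for macrophages (CSF1R and CD163) were at 0 in all libraries. The fibroblast list summed to 15.6 to 18.1 CPM, the endothelium list to 0 to 3.26 CPM and the adipocyte list to 0 to 2.83 CPM, and the macrophage list, at 2050 to 3439 CPM, consisted mostly of LYZ. Skeletal muscle markers reached 68.7 CPM in the tryptophan/niacin-free library against 0.919 to 2.69 CPM elsewhere, and their part in the results was not tested. The labels do not say that the methionine-free pair came from separate mice, so each p-value rests on the spread of these samples alone, which may be technical. The normal and combined-omission libraries also have shorter titles than the rest, and a difference in handling, if the style marks one, cannot be told apart from diet.

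Every member had counts in every library. Divided by transcript length in kilobases, PRMT1 was highest, at a mean of 237 CPM per kb over the 5 libraries, followed by NSUN2 at 38.0, EZH2 at 31.4, SMYD2 at 27.5 and CARM1 at 27.0. The lowest were DNMT3A at 2.98, SETDB2 at 2.06 and DNMT3B at 1.40 CPM per kb. By class the median was 2.98 CPM per kb for DNA, 10.2 for lysine, 20.9 for arginine and 10.7 for RNA methyltransferases. PRMT1 held its place apart in each library, between 209 and 301 CPM per kb, whereas EZH2, SMYD2 and CARM1 overlapped one another across libraries. The 36 genes together made up 2367 CPM on normal food, 2378 and 1968 CPM in the methionine-free pair, 2480 CPM without tryptophan and niacin and 2432 CPM in the combined omission. The low total of replicate 2 lay in the lysine methyltransferases, which summed to 957 CPM there against 1380 to 1519 CPM in the other libraries, and in the DNA methyltransferases (79.6 CPM against 131 to 147 CPM). The sum of the arginine methyltransferases was highest in that library, at 729 CPM against 563 to 631 CPM. PRMT1 alone held 420 CPM of the 729 CPM, and 292 to 332 CPM in the other libraries. RNA methyltransferases ranged from 202 to 235 CPM. In bulk tumour RNA, fewer cells of a kind and less RNA per cell cannot be told apart.

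**Figure D1:**
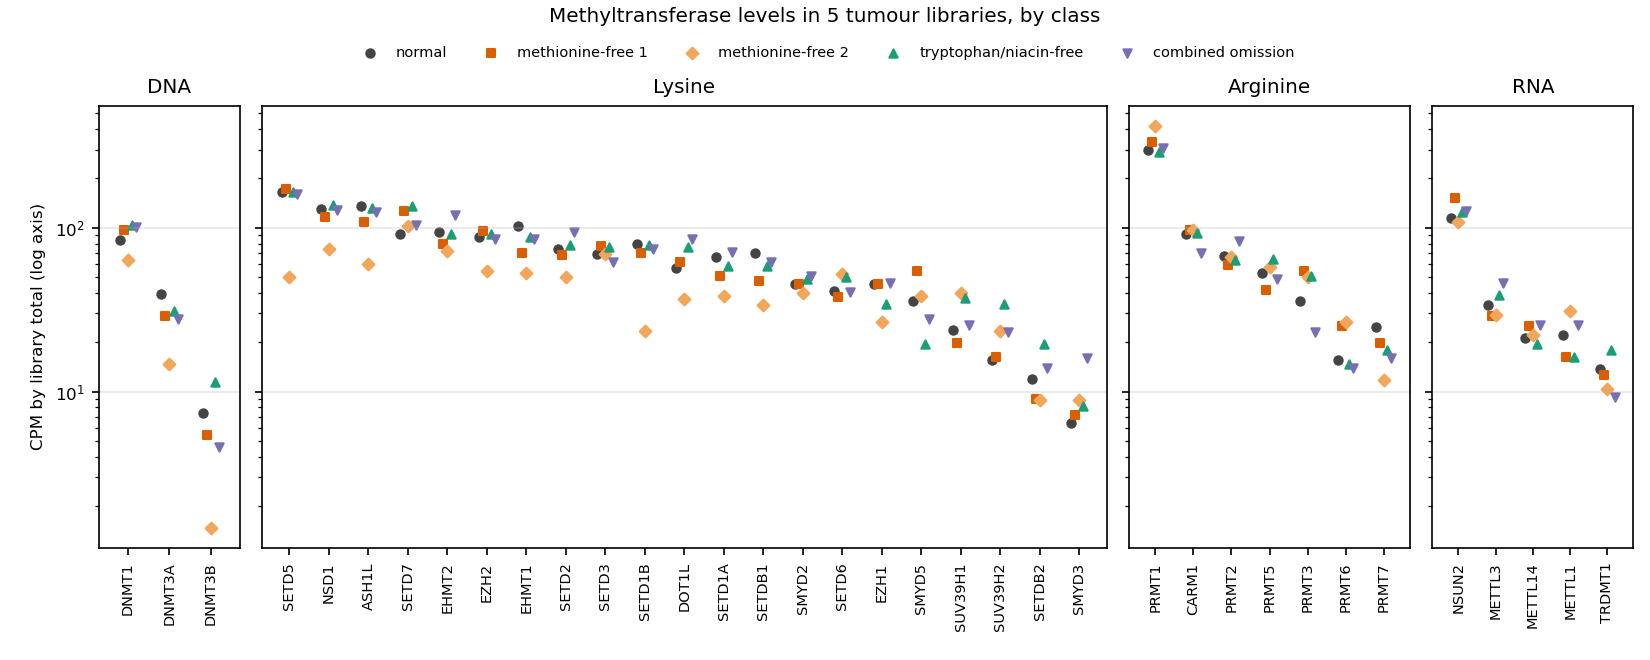
Level of each of the 36 members (CPM, log axis) in the 5 libraries, by class and in falling order of the mean. The light diamonds of methionine-free replicate 2 lie below the other 4 libraries for long genes such as SETD5 (50.1 CPM against 161 to 173 CPM) and SETD1B (23.6 CPM against 70.5 to 79.0 CPM).

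No member passed the test in any comparison. A gene was tested where it reached 16.3 CPM, 10 counts in a library of median size, in at least 1 library, and 10005 genes did so, 34 of them members. DNMT3B and SMYD3 did not, SETDB2 and TRDMT1 passed through the tryptophan/niacin-free library alone, and PRMT6 passed through the methionine-free pair. By edgeR's quasi-likelihood test with Benjamini-Hochberg adjustment over all tested genes and a threshold of 0.05, 0 of 34 members were called between methionine-free and normal food, where 0.230% of all genes were. At an unadjusted p under the same threshold there were also 0 members, against 7.68% of all genes, and DESeq2 called 0 members (0.0100% of all genes) and had 0 at the unadjusted threshold (0.390% of all genes). For the combined omission against methionine-free food 0 of 34 members were called (0.0300% of all genes) and 1 was under the unadjusted threshold (7.59% of all genes). For tryptophan/niacin-free against methionine-free food 0 were called (0.00% of all genes) and 1 was under the unadjusted threshold (4.91%). The interaction (the methionine effect with tryptophan and niacin absent, minus the same effect with them present) called 0 members (0.430% of all genes) and had 1 under the unadjusted threshold (6.45%). This contrast sets the normal and combined-omission libraries, which have the shorter titles, against the rest. An additive model, which averages the effect of methionine over both states of tryptophan and niacin, called 0 (0.00%) and had 0 under the unadjusted threshold (1.72%). DESeq2 called 0 members and had 0 under the unadjusted threshold in each of these 4 as well. It called few genes of any kind: 0.00%, 0.00%, 0.0200% and 0.00% of all genes in the same order, with 0.370%, 0.310%, 0.630% and 0.230% under the unadjusted threshold, so 0 of 34 is near its background. All 5 comparisons share libraries and are not independent of each other.

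A missed threshold does not show that the genes were alike between diets. The median half-width of a member's 95% interval was 0.85 on the log2 scale between methionine-free and normal food and 1.36 for the interaction. For 7 of 34 members, DNMT1, EZH2, SETD3, SMYD2, PRMT2, PRMT5 and CARM1, the interval between methionine-free and normal food lay wholly within a 2-fold change either way. In the additive model that held for 21 of 34 and in the interaction for 0 of 34. The additive model takes the methionine effect to be the same in both states of tryptophan and niacin. Its narrower intervals hold only under that assumption. Outside the additive model, the intervals rest on a spread shared across genes. A wide gap within the pair, as for EZH2 (95.8 and 54.5 CPM), did not widen a gene's own interval.

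The medians of the classes are given as a description, since no difference between classes was tested. Between methionine-free and normal food the median log2 fold change was −0.27 over 20 tested lysine methyltransferases, 6 of them above 0, and 0.15 over 7 arginine methyltransferases, 4 above 0, of which PRMT6 was tested only through its level in the pair. It was 0.20 over 5 RNA methyltransferases (3 above 0) and −0.42 over the 2 tested DNA methyltransferases (0 above 0). Over all 34 it was −0.07, with 13 above 0, beside 0.0028 over all 10005 genes, of which 50.3% were above 0. Replicate 1 alone, set against normal food over all 36 members, gave medians of −0.11 for lysine (10 of 21 above 0) and 0.09 for arginine (4 of 7 above 0). Replicate 2 alone gave −0.43 (7 of 21) and 0.22 (6 of 7). With offsets that level each library over transcript length, the lysine median was −0.13 (9 of 20 above 0), the arginine median 0.14 (4 of 7) and that over all 34 members 0.00010 (17 above 0), beside 0.04 over all genes.

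The 2 other tests against the methionine-free pair share that pair with the first. For the combined omission against the pair the median was 0.40 over 20 lysine methyltransferases (15 above 0) and −0.36 over 7 arginine methyltransferases (1 above 0). Over 34 members it was 0.16 (20 above 0), or 0.09 without replicate 2, beside −0.02 over all genes. For tryptophan/niacin-free food against the pair the median was 0.31 for lysine (16 above 0), −0.15 for arginine (2 above 0) and 0.19 over 34 members (22 above 0), or 0.06 without replicate 2, beside −0.01 over all genes. SETDB2 (1.01) and TRDMT1 (0.54) count as above 0 in the latter, though tested only through the tryptophan/niacin-free library. PRMT6, tested only through the pair, counts as below 0 in both tests, at −0.97 for the combined omission and −0.92 for tryptophan/niacin-free food. With the length offsets the lysine medians were 0.23 and 0.20 and the arginine medians −0.11 and −0.09. Set against normal food and over all 36 members, the tryptophan/niacin-free library had a median of 0.03 (19 above 0) and the combined omission one of 0.01 (18 above 0). The interaction had a median of 0.15 over 34 members (21 above 0), and 0.02 without replicate 2.

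**Figure D2:**
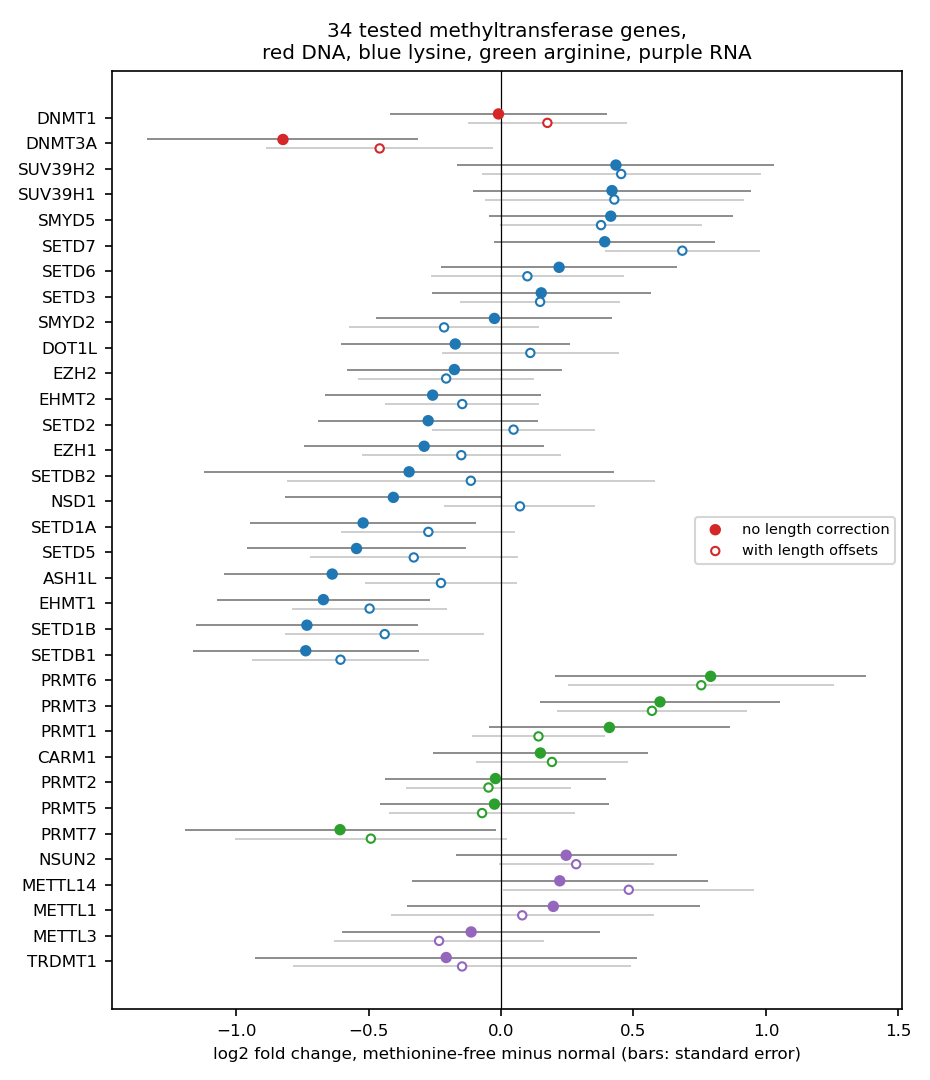
log2 fold change of the 34 tested members between methionine-free and normal food, without (filled) and with (open) transcript-length offsets, and bars of 1 standard error. Of the 20 lysine points 14 lie left of 0, no member passed the threshold, and NSD1 moved from −0.41 to 0.07 with the offsets.

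Of the DNA methyltransferases, DNMT1 copies methylation onto new strands after replication. It stood at 83.6 CPM on normal food, 97.6 and 63.4 CPM in the methionine-free pair, 104 CPM without tryptophan and niacin and 101 CPM in the combined omission. The normal library lay between the members of the pair, and the log2 fold change between these diets was −0.01, with a 95% interval from −0.82 to 0.80. DNMT3A, which sets new methylation, had 39.5 CPM on normal food, 28.9 and 14.7 CPM in the pair, 31.0 CPM without tryptophan and niacin and 27.7 CPM in the combined omission. All 3 libraries without methionine lay below the other 2, replicate 1 and the combined omission by a small margin. The pair against normal food gave −0.82 (SE 0.511, interval −1.83 to 0.18, edgeR adjusted p = 0.763), or −0.46 with the length offsets. DNMT3B, the other enzyme of new methylation, had 8 counts on normal food, 3 and 1 in the pair, 7 without tryptophan and niacin and 2 in the combined omission. These counts were too few to test, and those of the pair and of the combined omission were at or under the floor.

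Among enzymes of repressive histone marks, EZH2 is the catalytic subunit of the Polycomb complex that methylates lysine 27 of histone H3 (H3K27). It had 87.3 CPM on normal food, 95.8 and 54.5 CPM in the pair, 91.3 CPM without tryptophan and niacin and 85.3 CPM in the combined omission. Only replicate 2 stood apart from the 4 others. Its paralog EZH1 ranged from 26.5 CPM in replicate 2 to 46.1 CPM in the combined omission. EHMT1, which with EHMT2 methylates lysine 9 of histone H3 (H3K9), had 102 CPM on normal food, 70.5 and 53.0 CPM in the pair, 88.0 CPM without tryptophan and niacin and 85.3 CPM in the combined omission. The 3 libraries without methionine were the lowest, the combined omission by a small margin. The pair against normal food gave −0.67 (SE 0.403, interval −1.46 to 0.12, edgeR adjusted p = 0.757). EHMT2 had 94.7 CPM on normal food, 79.5 and 72.2 CPM in the pair, 91.3 CPM without tryptophan and niacin and 119.8 CPM in the combined omission, which was the highest library. SETDB1, which methylates the same residue at silenced repeats, had 69.8 CPM on normal food, 47.0 and 33.9 CPM in the pair, 58.7 CPM without tryptophan and niacin and 62.2 CPM in the combined omission. Both replicates were below every other library, and the difference from normal food was −0.74 (SE 0.427, interval −1.57 to 0.10; edgeR adjusted p = 0.739).

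The heterochromatin enzymes SUV39H1 and SUV39H2, which methylate H3K9, were higher in the tryptophan/niacin-free library than on normal food, on few counts. SUV39H1 had 23.9 CPM on normal food, 19.9 and 39.8 CPM in the pair, 37.5 CPM without tryptophan and niacin and 25.3 CPM in the combined omission. The pair spanned the range of the other diets. SUV39H2 had 15.6 CPM on normal food, 16.3 and 23.6 CPM in the pair, 34.2 CPM without tryptophan and niacin and 23.0 CPM in the combined omission. The tryptophan/niacin-free value, from 21 counts, was the highest. SETDB2 was highest in that library too, at 19.6 CPM against 8.84 to 13.8 CPM elsewhere, but from 12 counts. It was tested only through that library.

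Of the enzymes of active marks, SETD1A and SETD1B methylate lysine 4 of histone H3 (H3K4). SETD1B had 79.0 CPM on normal food, 70.5 and 23.6 CPM in the pair, 78.2 CPM without tryptophan and niacin and 73.7 CPM in the combined omission. Its difference from normal food, −0.73 (SE 0.420, interval −1.56 to 0.09; edgeR adjusted p = 0.737, the smallest among the members in this comparison), came mostly from replicate 2: without it the value was −0.16, without replicate 1 it was −1.62. SETD1A had 66.2 CPM on normal food, 50.6 and 38.3 CPM in the pair, 58.7 CPM without tryptophan and niacin and 71.4 CPM in the combined omission. ASH1L, linked to methylation of lysine 36 of histone H3 (H3K36), had 135 CPM on normal food, 108 and 60.4 CPM in the pair, 132 CPM without tryptophan and niacin and 126 CPM in the combined omission. The libraries without methionine were again the lowest, by a small margin for the combined omission, and the pair gave −0.64 against normal food (SE 0.407, interval −1.43 to 0.16; edgeR adjusted p = 0.769), or −0.23 with the length offsets. NSD1, which methylates H3K36 too, had 129.6 CPM on normal food, 116 and 73.7 CPM in the pair, 137 CPM without tryptophan and niacin and 129 CPM in the combined omission. SETD2, the enzyme of the third methyl group on that residue, ranged from 50.1 CPM in replicate 2 to 94.5 CPM in the combined omission. DOT1L, which methylates a lysine in the globular core of histone H3, had 56.5 CPM on normal food, 61.4 and 36.8 CPM in the pair, 75.8 CPM without tryptophan and niacin and 85.3 CPM in the combined omission. It had the largest positive value among tested members in the combined omission against methionine-free food, 0.75 (SE 0.457, interval −0.15 to 1.64; edgeR adjusted p = 0.734).

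The remaining SET-domain and SMYD genes act partly on proteins other than histones. SETD5 had 165 CPM on normal food, 173 and 50.1 CPM in the pair, 166 CPM without tryptophan and niacin and 161 CPM in the combined omission. The other 4 libraries lay between 161 and 173 CPM and only replicate 2 was apart. SETD7, which adds a single methyl group to H3K4 and acts on other proteins too, had 91.0 CPM on normal food, 126 and 103 CPM in the pair, 135 CPM without tryptophan and niacin and 104 CPM in the combined omission. Normal food was the lowest library. Its difference between the pair and normal food was 0.39 (SE 0.418; edgeR adjusted p = 0.889) and with length offsets 0.68 (SE 0.293; edgeR adjusted p = 0.585). SMYD5 had 35.8 CPM on normal food, 54.2 and 38.3 CPM in the pair, 19.6 CPM without tryptophan and niacin and 27.7 CPM in the combined omission. Both libraries without tryptophan and niacin, with 12 counts each, lay below the 3 with them. This order was not counted over the other members or all genes. The tryptophan/niacin-free library against the pair gave −1.32 (SE 0.560, interval −2.42 to −0.22; edgeR adjusted p = 0.992), which was under the unadjusted threshold. SETD3, the actin histidine methyltransferase (62.2 to 77.7 CPM), SETD6 (37.9 to 52.3 CPM) and SMYD2 (39.8 to 50.7 CPM) varied least in this class. SMYD3 had between 4 and 7 counts in each library.

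PRMT1, the main enzyme of asymmetric arginine dimethylation, had 298 CPM on normal food, 332 and 420.0 CPM in the pair, 292 CPM without tryptophan and niacin and 309 CPM in the combined omission. The 3 libraries without methionine lay above the other 2, the combined omission by a small margin. Against normal food the pair gave 0.41 (SE 0.456, interval −0.48 to 1.30; edgeR adjusted p = 0.894), 0.16 without replicate 2 and 0.14 with the length offsets. PRMT3, a cytosolic enzyme that methylates a ribosomal protein, had 35.8 CPM on normal food, 54.2 and 50.1 CPM in the pair, 50.5 CPM without tryptophan and niacin and 23.0 CPM in the combined omission. Each single omission lay above normal food and the combined omission below it. The combined omission, with 10 counts, gave −1.24 against the pair (SE 0.576, interval −2.37 to −0.11; edgeR adjusted p = 0.637). The interaction was −1.69 (SE 0.783, interval −3.23 to −0.16; edgeR adjusted p = 0.696). Both were under the unadjusted threshold by edgeR and not by DESeq2, neither passed after adjustment, and they share the combined-omission library.

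Among the other arginine enzymes, PRMT6, which methylates an arginine near the start of histone H3, had 15.6 CPM on normal food, 25.3 and 26.5 CPM in the pair, 14.7 CPM without tryptophan and niacin and 13.8 CPM in the combined omission. Both replicates lay above the 3 other libraries, on 14 and 18 counts. It was tested only through its level in the pair, so this order and the value below add no support for a difference. The difference from normal food was 0.79 (SE 0.588, interval −0.36 to 1.94; edgeR adjusted p = 0.816). CARM1, a coactivator of transcription, had 91.9 CPM on normal food, 97.6 and 97.3 CPM in the pair, 92.9 CPM without tryptophan and niacin and 70.3 CPM in the combined omission, the only library apart. PRMT5, the main enzyme of symmetric dimethylation, ranged from 41.6 CPM in replicate 1 to 64.4 CPM without tryptophan and niacin, and PRMT2 from 59.6 to 83.0 CPM. PRMT7, which adds a single methyl group, was highest on normal food at 24.8 CPM and lowest in replicate 2 at 11.8 CPM.

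**Figure D3:**
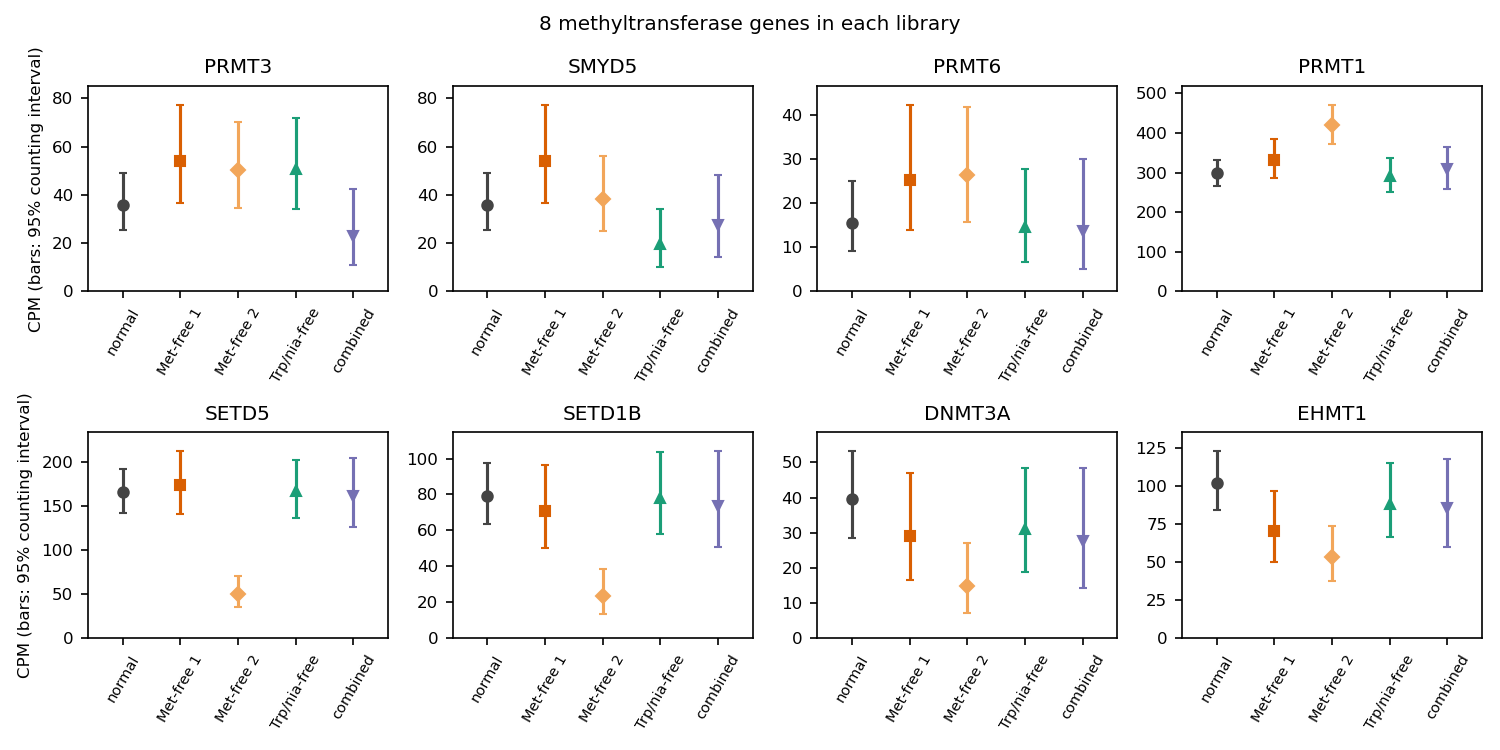
Level of 8 members in each library (CPM, linear axes from 0), with 95% Poisson intervals that cover counting error only. The bars of PRMT3 and SMYD5 overlap between nearly all libraries, while those of SETD5 and SETD1B in methionine-free replicate 2 lie clear of the other 4.

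METTL3 and METTL14 form the core of the complex that writes N6-methyladenosine on mRNA. METTL3 had 33.5 CPM on normal food, 28.9 and 29.5 CPM in the pair, 39.1 CPM without tryptophan and niacin and 46.1 CPM in the combined omission. METTL14 had 21.1 CPM on normal food, 25.3 and 22.1 CPM in the pair, 19.6 CPM without tryptophan and niacin and 25.3 CPM in the combined omission, so that the 2 libraries with methionine were the lowest, by a small margin. METTL1, which methylates guanosine in tRNA, had 22.1 CPM on normal food, 16.3 and 30.9 CPM in the pair, 16.3 CPM without tryptophan and niacin and 25.3 CPM in the combined omission, a range that the pair alone covered. NSUN2, which makes 5-methylcytosine in tRNA and mRNA, had 114 CPM on normal food, 152 and 109 CPM in the pair, 125 CPM without tryptophan and niacin and 127 CPM in the combined omission. The spread within the pair was again wider than that among diets. TRDMT1, the tRNA methyltransferase also named DNMT2, ranged from 9.22 CPM in the combined omission to 17.9 CPM without tryptophan and niacin, on 4 to 15 counts.

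The difference within the methionine-free pair followed transcript length in the members as in all genes. Across the 36 members, log2 CPM in replicate 2 minus replicate 1 had a Spearman rho of −0.68 with length. In the longest of 4 equal groups of genes by length (median 6871.5 bases), which holds 13 members, the members had a median difference of −0.49, 12 of them below 0, beside −0.36 for all genes of that group. In the shortest group (median 1546.5 bases), which holds the 5 tested members PRMT1, SMYD2, SETD6, METTL3 and METTL1, the members had a median of 0.45 beside 0.35. For methionine-free against normal food the rho was −0.60 over 34 members and −0.43 over all genes. For tryptophan/niacin-free against normal food it was −0.08 over 36 members and for the combined omission −0.06, with 0.0069 and −0.0023 over all genes. Replicate 1 against normal food also sloped downward over all genes. Its medians were 0.13, 0.04, −0.02 and −0.10 from the shortest to the longest group. Its medians for the members were −0.11 in the shortest group and −0.16 in the longest. The members of the lysine class had a median length of 4623 bases and those of the arginine class 2653 bases. The share of length in the class medians above was not tested beyond the length offsets.

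**Figure D4:**
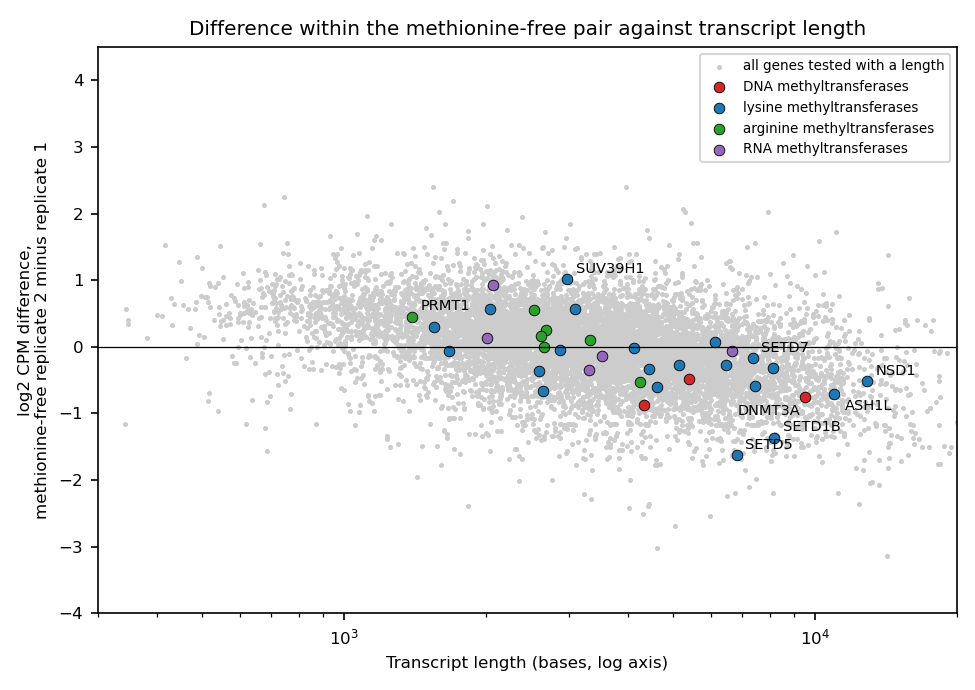
Difference within the methionine-free pair (log2 CPM, replicate 2 minus replicate 1) against transcript length (log axis) for 9583 genes in grey, of which 33 lie outside the axes, and the members in colour. The members follow the downward slope of all genes, with SETD5 and SETD1B below it and SUV39H1 above it.

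Comparisons between lone libraries had no replicate check, and no test was made. A size rule served in its place: a log2 CPM difference, scaled by TMM with a prior count of 2, of at least 1 in size, and a ratio of counts whose 95% exact binomial interval leaves out 1. It compares libraries, not diets. Between tryptophan/niacin-free and normal food 0 of 36 members lay beyond it, where 3.52% of all genes did. SUV39H2 came nearest, with a log2 difference of 0.96 and a count ratio of 2.13 (1.07 to 4.30). Between the combined omission and normal food it was 0 of 36 (2.02% of all genes). Between the combined omission and tryptophan/niacin-free food it was 1 of 36 (4.04% of all genes): PRMT3 was 2.14-fold lower in the combined omission, 10 counts against 31, with an interval of 1.02 to 4.90. Within the methionine-free pair 3 of 36 members lay beyond the rule, as did 6.60% of all genes. SETD5 was 3.19-fold lower in replicate 2 (2.14 to 4.87), SETD1B 2.75-fold lower (1.504 to 5.28) and SUV39H1 2.17-fold higher (1.04 to 4.85). With the length offsets 1 member lay beyond the rule within the pair. Each replicate against normal food, a comparison chosen after seeing the data, gave 0 of 36 for replicate 1 (2.99% of all genes) and 4 for replicate 2 (13.7%). Those 4, all lower (8.79% of all genes were), were SETD1B (3.08-fold, 1.79 to 5.63), SETD5 (3.03-fold, 2.09 to 4.52), DNMT3A (2.46-fold, 1.22 to 5.50) and ASH1L (2.05-fold, 1.44 to 2.98). With the length offsets 1 member lay beyond the rule there too.

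Members were also counted by whether the 3 libraries without methionine lay wholly to 1 side of the 2 with it, a count of order without a test. Below were 7 of 36: DNMT3A, DNMT3B, EHMT1, SETD1B, NSD1, ASH1L and TRDMT1, where 10.9% of all tested genes did so. Of these, DNMT3B was not among the tested genes, with counts at or under the floor in the libraries without methionine. TRDMT1, on 4 to 15 counts, was tested only through the tryptophan/niacin-free library, where it was highest. Its place below therefore adds no support. Above were 2 of 36, PRMT1 and METTL14, where 7.28% of all genes did so. For NSD1, SETD1B, ASH1L, EHMT1 and DNMT3A the combined omission was nearer to the libraries with methionine than to replicate 2. With the length offsets, 2 members, ASH1L and TRDMT1, stayed below, and PRMT1 and METTL14 stayed above. Both replicates of the pair lay below normal food for 15 of 36 members (38.5% of all tested genes). Both lay above it for 10 of 36 (31.6% of all tested genes). DNMT3B, below, and SMYD3, above, were not tested, and PRMT6, above, was tested only through the pair.

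The genes around the methyltransferases were counted from lists fixed by function. For methionine-free against normal food, 0 of 19 tested partners of the members were called, 0 of 19 other methyltransferases, 0 of 19 demethylases and oxidases, 0 of 8 genes of S-adenosylmethionine supply and 0 of 15 proliferation genes. Their medians were 0.06 (12 above 0), −0.16 (7 above 0), −0.53 (2 above 0), −0.09 (4 above 0) and 0.19 (9 above 0). At the unadjusted threshold there were 1 partner, 1 other methyltransferase, 5 demethylases and 1 proliferation gene, beside 7.68% of all genes. For the demethylases there were 2 with the length offsets and 1 by DESeq2. DESeq2 called 0 in each list. Of the partners, RIOK1, which brings substrates to PRMT5, had 15.6 CPM on normal food, 39.7 and 26.5 CPM in the pair, 32.6 CPM without tryptophan and niacin and 48.4 CPM in the combined omission (1.12 for the pair against normal food, SE 0.551; edgeR adjusted p = 0.638). KMT2C, an H3K4 methyltransferase with a very long transcript, had 228 CPM on normal food, 174 and 54.5 CPM in the pair, 258 CPM without tryptophan and niacin and 253 CPM in the combined omission (−0.98, SE 0.422; edgeR adjusted p = 0.553). As for SETD1B, the low library was replicate 2.

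The demethylases, which remove methyl marks, had the lowest median of these lists, −0.53, and −0.38 (3 above 0) with the length offsets. KDM3A, a histone demethylase for H3K9 that is a known hypoxia target, had 229 CPM on normal food, 95.8 and 86.9 CPM in the pair, 86.4 CPM without tryptophan and niacin and 171 CPM in the combined omission. Each single omission was below the other libraries, and the pair against normal food gave −1.26 (SE 0.404; edgeR adjusted p = 0.261). KDM7A, a demethylase of H3K9 and H3K27, had 51.5 CPM on normal food, 18.1 and 22.1 CPM in the pair, 11.4 CPM without tryptophan and niacin and 55.3 CPM in the combined omission. It was the only gene of the members and these 5 lists called anywhere: its interaction was 3.56 (SE 0.860; edgeR adjusted p = 0.0127), and 3.17 with the length offsets (adjusted p = 0.193), where the call ended. DESeq2 did not call it either (3.60, adjusted p = 1.00). KDM4B was lowest in replicate 2, at 13.3 CPM against 40.7 to 70.8 CPM in the other libraries.

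For the supply of the methyl donor, AHCY, which clears S-adenosylhomocysteine, had 345 CPM on normal food, 506 and 653 CPM in the pair, 438 CPM without tryptophan and niacin and 355 CPM in the combined omission. The pair was highest, with 0.82 against normal food (SE 0.486, interval −0.13 to 1.77; edgeR adjusted p = 0.751). MAT2A, which makes S-adenosylmethionine and was picked out after its values were seen, had 481 CPM on normal food, 453 and 338 CPM in the pair, 591 CPM without tryptophan and niacin and 516 CPM in the combined omission (−0.23, SE 0.468; edgeR adjusted p = 0.957). The proliferation genes are marks of dividing cells, as DNMT1 and EZH2 are. The proliferation sum ran from 2099 CPM in replicate 2 to 2791 CPM without tryptophan and niacin, and DNMT1 was highest in the latter library. The sum leans on abundant genes: MKI67 had 156 CPM in replicate 2 against 414 CPM on normal food. On the TMM scale 12 of the 15 genes lay above normal food in replicate 2 and 3 below. EZH2 was highest in methionine-free replicate 1, at 95.8 CPM against 91.3 CPM without tryptophan and niacin. PCNA is the polymerase clamp that recruits DNMT1 to replication forks. It had 67.5 CPM on normal food, 116 and 192 CPM in the pair and 134 CPM without tryptophan and niacin. In the combined omission it had 73.7 CPM. The pair against normal food gave 1.26 (SE 0.436, edgeR adjusted p = 0.370). In that comparison 9 of the 15 proliferation genes were above 0 and 6 below.

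Some member counts may hold reads of neighbours. Of the 36 members, 14 overlap another listed gene in the annotation, among them SETD1B (RHOF and LINC01089), SETD6 (CNOT1), CARM1 (YIPF2), METTL3 (TOX4), SUV39H2 (DCLRE1C), PRMT5 (PRMT5-AS1) and ASH1L (ASH1L-AS1). Counts with decimals, which occur where an estimate shares a read between genes, were found in 6 members: SETD6, ASH1L, DOT1L, PRMT5, CARM1 and METTL3. The strand setting of the counting is not given in the sources used here, so the values of these members are uncertain. PRMT3, SMYD5, SETD5 and EHMT1, named above for their differences, overlap no listed gene.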

How the data were processed

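mRNA of 5 tumour samples was sequenced after a stranded library kit (per the labels' protocols). The authors deposited 1 file per sample with expected counts by gene symbol, some with decimals. Per the submitters' processing notes, reads were handled on build hg19 with featureCounts of Subread 2.0.0, SAMtools 0.1.18, Bowtie2 2.2.8 and TopHat2 2.1.1. Which annotation and strand setting were used, how multi-mapping reads were counted and whether mouse reads were removed is not given in the sources used here. Reads of mouse RNA could be counted under human symbols.

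Groups came from the treatment labels. Before tests, expected counts were rounded. Of 26364 genes, filterByExpr (minimum count 10) kept 10005 and removed 16359. In R 4.3.3, edgeR 4.0.16 (and limma 3.58.1) ran the tests: TMM scaling and the quasi-likelihood F-test, adjusted over all tested genes. A model with 1 mean per diet left 1 residual degree of freedom, that of the methionine-free replicates, so lone libraries were assumed to vary like that pair. The additive model left 2. In the first model the prior degrees of freedom were infinite. Each gene's spread thus came from a trend over all genes, not from its own pair. The standard error is the log2 fold change over the root of F, and intervals are at 95%. DESeq2 1.42.0, the scaling of DESeq2, total-count scaling, no filter, a prior count of 0.5, omitted libraries and transcript-length offsets (a loess of span 0.5 per library) were alternatives. Lengths were the longest RefSeq-matched transcript of each gene and came from a newer build than the files. The test was tried on simulated data first. Count intervals and floors hold counting error alone; PCR copies are not marked.

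Named members were those called, the 5 of smallest p in each direction of each test, those beyond the size rule, and the 3 highest and 3 lowest per length in each class. The members and lists were chosen with earlier results of these data known. The NRF1 letters were shortened after matches to a longer form had been seen. From each related list at most 2 genes of smallest p, and any called, were named.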

Additional observations from a re-analysis of the deposited data

Results flagged for a closer look

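KDM7A, a histone demethylase and not itself a methyltransferase, was flagged because the interaction of methionine with tryptophan and niacin called it. With tryptophan and niacin in the food, it stood at 51.5 CPM on normal food and at 18.1 and 22.1 CPM without methionine. Without them, it stood at 11.4 CPM with methionine in the food and at 55.3 CPM in the combined omission. The interaction, the difference between these methionine effects, gave 3.56 on the log2 scale (SE 0.860, edgeR adjusted p = 0.0127). It sets the normal and combined-omission libraries, which have shorter titles, against the rest. A difference in handling, if the titles mark one, cannot be told apart from diet here. The counts behind the interaction were 56, 10, 15, 7 and 24, and the call ended with the length offsets and in DESeq2. No member met this or any other condition for a closer look.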

How the results depend on the processing

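No paired analysis was possible because the labels give no replicate number that is shared between diets. No member was called under any alternative run. Of the alternatives for summary results, 149 stayed within the bounds set for them and 21 moved. With the length offsets the genes called were 3 (methionine-free against normal food), 1 (combined omission against methionine-free) and 24 (interaction), and with DESeq2 1, 0 and 2. Total-count scaling, which moved the median of all genes by up to 0.10, called 6 for the combined omission against methionine-free. For the additive model, leaving out 1 library called between 0 and 25 genes (6 without the normal, 20 without the tryptophan/niacin-free and 25 without the combined-omission library). Leaving out a methionine-free replicate gave member medians of 0.086 to 0.27 (combined omission against methionine-free), 0.063 to 0.24 (tryptophan/niacin-free against methionine-free) and 0.018 to 0.29 (interaction). By the size rule, total-count scaling and a prior count of 0.5 each put 1 member, SUV39H2, beyond it between tryptophan/niacin-free and normal food. The length offsets left 1 member and 400 genes within the pair, and 1 member, 790 genes and a median of 0.070 between replicate 2 and normal food. They also left 2 members with all libraries without methionine below the others and 2 above. Omitting replicate 2, which leaves fewer libraries to set apart, put 9 below and 4 above. In the additive model with 1 library left out PRMT6 ranged from −0.051 to 0.79 and SETDB1 from −0.74 to 0.12, with the sign changed without the normal library. Neither was called. SETD1B between methionine-free and normal food ranged from −1.62 to −0.16. The median member of the shallowest library had about 25 counts. No detection limit was estimated.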
